A study of Rattus norvegicus with 2 samples.

Results

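The 7 microRNAs (miRNAs) described here mark the cells of the blood. rno-miR-223 marks the myeloid cells, rno-miR-142-3p and rno-miR-142-5p mark all leukocytes, rno-miR-150 and rno-miR-342-3p the lymphoid cells, and rno-miR-451 and rno-miR-144 the erythroid cells (the species prefix rno is left out below). They were taken by name from the 350 rat miRNAs on the array. The array carried 14 probes for them, 2 per miRNA, on 140 spots. The study compared squamous cell carcinoma of the tongue with normal tongue in rats, with 1 tumour-labelled array and 1 normal-labelled array. The tumours came from male Sprague-Dawley rats, aged 6 to 7 weeks at the start, that were given 4NQO at 0.02 g/l. 4NQO is a quinoline carcinogen that damages DNA and is used to induce oral carcinoma in rodents. The normal tongue came from male rats of the same strain and age that received distilled water, with 20 rats in each arm. RNA was taken from 7 tumours and 7 normal tissues, and the labels leave unsaid whether 1 animal or several gave the RNA on an array. With 1 array per group no test between the groups was possible, so every error below is a spread between spots of the same array, and a difference is read by its size alone.

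miRNAs are short RNAs that guide Argonaute proteins to partly complementary sites in messenger RNAs, mainly through their seed, bases 2 to 8. Some are made almost wholly by blood cells, so in a solid tissue they act as tags of the leukocytes and red cells it holds. miR-223 is the main miRNA of neutrophils and monocytes, and miR-142 is made throughout the haematopoietic lineage. miR-150 is abundant in mature T and B lymphocytes, where it represses Myb, and miR-342 is enriched in lymphocytes. miR-144 and miR-451 form 1 cluster that the factor GATA1 drives in red cell precursors, and miR-451 is cut by Argonaute2 in place of Dicer and persists in circulating red cells.

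The mature sequences show what the array could read. Of the 7 miRNAs, 6 matched a mature rat miRNA of RefSeq, assembly GRCr8, through their probes, and miR-150 is given by name only. In each line the seed is in capitals, and no 2 of the 6 share it. Among 724 mature rat miRNAs of that table, 0 others carry any of these 6 seeds.
miR-223: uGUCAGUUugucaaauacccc
miR-142-3p: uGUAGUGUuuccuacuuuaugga
miR-142-5p: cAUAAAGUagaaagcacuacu
miR-342-3p: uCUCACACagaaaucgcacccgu
miR-451: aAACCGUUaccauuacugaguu
miR-144: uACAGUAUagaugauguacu

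In that assembly miR-223 lies at chrX:65151450-65151470, within the span of a long non-coding RNA gene. miR-142-5p lies at chr10:73055119-73055139 and miR-142-3p at chr10:73055155-73055177, in 1 hairpin within the span of Tspoap1. miR-342-3p lies at chr6:133329715-133329737, within the span of Evl. miR-144 at chr10:63459446-63459465 and miR-451 at chr10:63459585-63459606 come from hairpins that are 89 bases apart, and no longer gene of the RefSeq table spans them. All 6 are on the plus strand, and the table does not say whether a spanning gene is exonic or intronic at these sites. The array's own grid names build rn4, so no array value was placed by these coordinates.

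Each probe of the 6 matched miRNAs is the reverse complement of its miRNA from the 3′ end on. In each of these pairs the longer probe reaches 1 base further towards the miRNA's 5′ end. For miR-150 no mature sequence was matched, so the pairing of its probes is not given. The longer probes of 4 miRNAs are shown, 3 whose ratios use them and miR-342-3p, whose probe covers little of the seed. Capitals mark the bases that pair with the seed.
miR-223 probe: ggggtatttgacaAACTGACa
miR-142-3p probe: tccataaagtaggaaACACTACa
miR-451 probe: aactcagtaatggtAACGGTT
miR-342-3p probe: acgggtgcgatttctGT
The longer probes of miR-223, miR-142-3p and miR-451 cover all 7 seed bases, while that of miR-342-3p covers 2 of them. The closest probe of another miRNA differed from the longer probe of a blood cell miRNA at 3 to 5 bases of an ungapped stretch of 14 to 16. The smallest of these distances was that of miR-451 from miR-32.

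The arrays lay on 1 slide and were read in 1 scan, and no spot was saturated. A probe counted as detected where more than 50% of its kept spots were well above background. By this rule 175 of 938 probes were detected on the tumour-labelled array and 149 on the normal-labelled array. The 75th percentile of the 140 probes detected on both arrays, 526 units on the tumour-labelled array and 277 on the normal-labelled array, served as the scale, so a scaled level of 1 is that percentile. The percentiles differ by 0.92 on the log2 scale, an amount that every value without scaling includes. Tongue miRNAs were present on both arrays, with all 4 listed muscle miRNAs and both listed miRNAs of squamous epithelium measured. Muscle miR-1 was 13.2-fold higher on the tumour-labelled array (log2 ratio 3.72), and miR-21 and miR-31, which are often raised in human oral carcinoma, were 9.60-fold (-3.26) and 15.2-fold lower (-3.93). These directions go against the usual picture of oral carcinoma, so each array is named after its label, and no direction below is firmer than that label.

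The 4 blood cell miRNAs that could be measured, 1 for each lineage class, went opposite ways. The myeloid miR-223 and the pan-leukocyte miR-142-3p were lower on the tumour-labelled array, by 5.31-fold and 3.53-fold. The lymphoid miR-150 and the erythroid miR-451 were higher there, by 2.69-fold and 2.05-fold. Of the 7 miRNAs, these 4 were measured on both arrays, with 2 past 2-fold upwards and 2 past 2-fold downwards. The upward count was 0 with normexp background correction and an offset of 50, 0 with no filter on dim probes, and 1 on even spots or with normexp without offset. The downward count was 1 without scaling or on the positive control features. Among all 85 miRNAs with a ratio, 35.3% were at least 2-fold apart, 12.9% being higher and 22.4% lower on the tumour-labelled array. Without scaling 38.8% were, with 32.9% higher and 5.88% lower. The median log2 ratio of the 4 was -0.39 and that of all 85 was -0.46. The median of the 4 falls between 2 low and 2 high values, and none of them lay near it. In this bulk RNA, fewer cells of a type and less of the miRNA in each cell cannot be told apart.

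miR-223, which restrains neutrophil production and activation in mice, gave the clearest myeloid reading, since both its probes were detected on both arrays. On the longer probe the lowest, median and highest kept spots were 69.6, 77.1 and 82.4 intensity units on the tumour-labelled array, against 201, 212 and 224 on the normal-labelled array. On the shorter probe they were 45.3, 48.0 and 53.3 units on the tumour-labelled array and 128, 139 and 145 on the normal-labelled array. All tumour-labelled spots were below all normal-labelled spots on either probe, before any scaling. The share of all probes without such overlap was not counted, so lack of overlap does not set the blood cell miRNAs apart. The scaled log2 ratio was -2.38 (spot SE 0.03) on the longer probe and -2.44 (spot SE 0.03) on the shorter. Their mean, -2.41 (spot SE 0.02), ranked 4 of 85 from the lowest, and without scaling it was -1.49, still a 2.81-fold difference.

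The 2 arms of the miR-142 hairpin differed in whether they could be read at all. miR-142-3p had 31.1, 41.6 and 47.4 intensity units as its lowest, median and highest spot on the tumour-labelled array, against 71.4, 74.9 and 82.0 on the normal-labelled array, with its longer probe. Its shorter probe had a mean of 15.2 ± 3.61 units on the tumour-labelled array (SD, n = 9 spots), where it was not detected, and 30.3 ± 3.21 on the normal-labelled array (SD, n = 10 spots). The unscaled spots of the 2 arrays did not overlap on either probe, a trait whose share over all probes was not counted. The log2 ratio of the longer probe was -1.82 (spot SE 0.06), ranked 6 of 85 from the lowest, and the shorter probe gave a fold of at least 3.14 in the same direction. Without scaling the ratio of the longer probe was -0.90, a 1.87-fold difference, so its place past 2-fold depends on the scaling.

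miR-142-5p, the other arm, was not detected on either array. Its probe means were -0.81 and -0.44 intensity units on the tumour-labelled array and 0.10 and -0.41 on the normal-labelled array, and 0 of its kept spots were well above background. Negative control spots had means of 0.61 ± 3.04 units on the tumour-labelled array and 1.67 ± 3.02 on the normal-labelled array (SD, n = 655 and 642 kept spots). The probes of miR-142-5p thus lay at the level of the negative controls on both arrays, and no fold is given. Its longer probe pairs with 19 of the 21 bases, and holds 31.6% G and C, against 34.8% for the longer probe of miR-142-3p.

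miR-150, the lymphocyte miRNA, was the highest of the blood cell ratios. Its longer probe had 136, 145 and 152 intensity units as lowest, median and highest kept spot on the tumour-labelled array, against 22.6, 28.0 and 33.3 on the normal-labelled array. The shorter probe passed the detection rule only on the tumour-labelled array, with a mean of 26.6 ± 3.84 units there (SD, n = 10 spots) and 5.79 ± 5.68 on the normal-labelled array (SD, n = 10 spots). Unscaled spots of the arrays did not overlap on either probe, but they include the 0.92 between the percentiles, which raises the tumour-labelled array. The share of all probes without overlap was not counted here either. The log2 ratio of the longer probe was 1.43 (spot SE 0.05), ranked 10 of 85 from the highest, and without scaling it was 2.35, a 5.09-fold difference. It was under 2-fold with normexp and an offset of 50 (0.38) and with no filter on dim probes (0.52). The shorter probe allows no fold after scaling, since its scaled level of 0.0505 on the tumour-labelled array lies below the detection limit of the normal-labelled array.

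The second lymphoid miRNA, miR-342-3p, gave no ratio under the detection rule. Its longer probe had a mean of 13.5 ± 4.92 intensity units on the tumour-labelled array (SD, n = 9 spots) and 13.6 ± 2.74 on the normal-labelled array (SD, n = 10 spots). Its shorter probe had 8.06 ± 2.49 units on the tumour-labelled array (SD, n = 10 spots) and 8.86 ± 3.19 on the normal-labelled array (SD, n = 8 spots). Spots of the arrays overlapped on both probes. These means are above every negative control probe but below 18.3 and 18.2 units, the dimmest detected probes of the tumour-labelled array and of the normal-labelled array. On the longer probe 2 of 9 kept tumour-labelled spots and 1 of 10 normal-labelled spots were well above background. The scanner software's own call for the miRNA as a whole was detected on both arrays. Its total gene signal was 14.3 units on the tumour-labelled array and 14.9 on the normal-labelled array. After scaling, that signal gave a log2 ratio of -0.78, against 1.61 for miR-150 by the same measure. miR-342-3p therefore gives no second lymphoid reading by the detection rule, and its dim total signal was not raised alongside miR-150.

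miR-451, the red cell miRNA, resembled miR-150 in direction. Its longer probe had 136, 142 and 154 intensity units as lowest, median and highest kept spot on the tumour-labelled array, against 33.1, 36.8 and 39.8 on the normal-labelled array. The shorter probe had a mean of 60.2 ± 4.13 units on the tumour-labelled array and 12.7 ± 2.88 on the normal-labelled array, where it was not detected (SD, n = 10 spots each). Again no unscaled spots of the arrays overlapped, with the same 0.92 between the percentiles included and the share over all probes not counted. The log2 ratio of the longer probe was 1.04 (spot SE 0.03), ranked 11 of 85 from the highest, and the shorter gave a fold of at least 1.74. The ratio lay close to the 2-fold line, and without scaling it was 1.96, a 3.88-fold difference, but 0.27 with normexp and an offset of 50.

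miR-144, which shares the erythroid cluster with miR-451, was not detected on either array. Its longer probe averaged 4.29 ± 3.20 intensity units on the tumour-labelled array (SD, n = 10 spots) and -1.34 ± 2.49 on the normal-labelled array (SD, n = 9 spots). Its shorter probe averaged -0.62 ± 2.03 units on the tumour-labelled array (SD, n = 8 spots) and -1.99 ± 2.80 on the normal-labelled array (SD, n = 10 spots). Spots of the arrays overlapped on both probes, and no spot was well above background. The erythroid reading therefore rests on miR-451 alone, as the lymphoid reading rests on miR-150 alone.

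**Figure D1:**
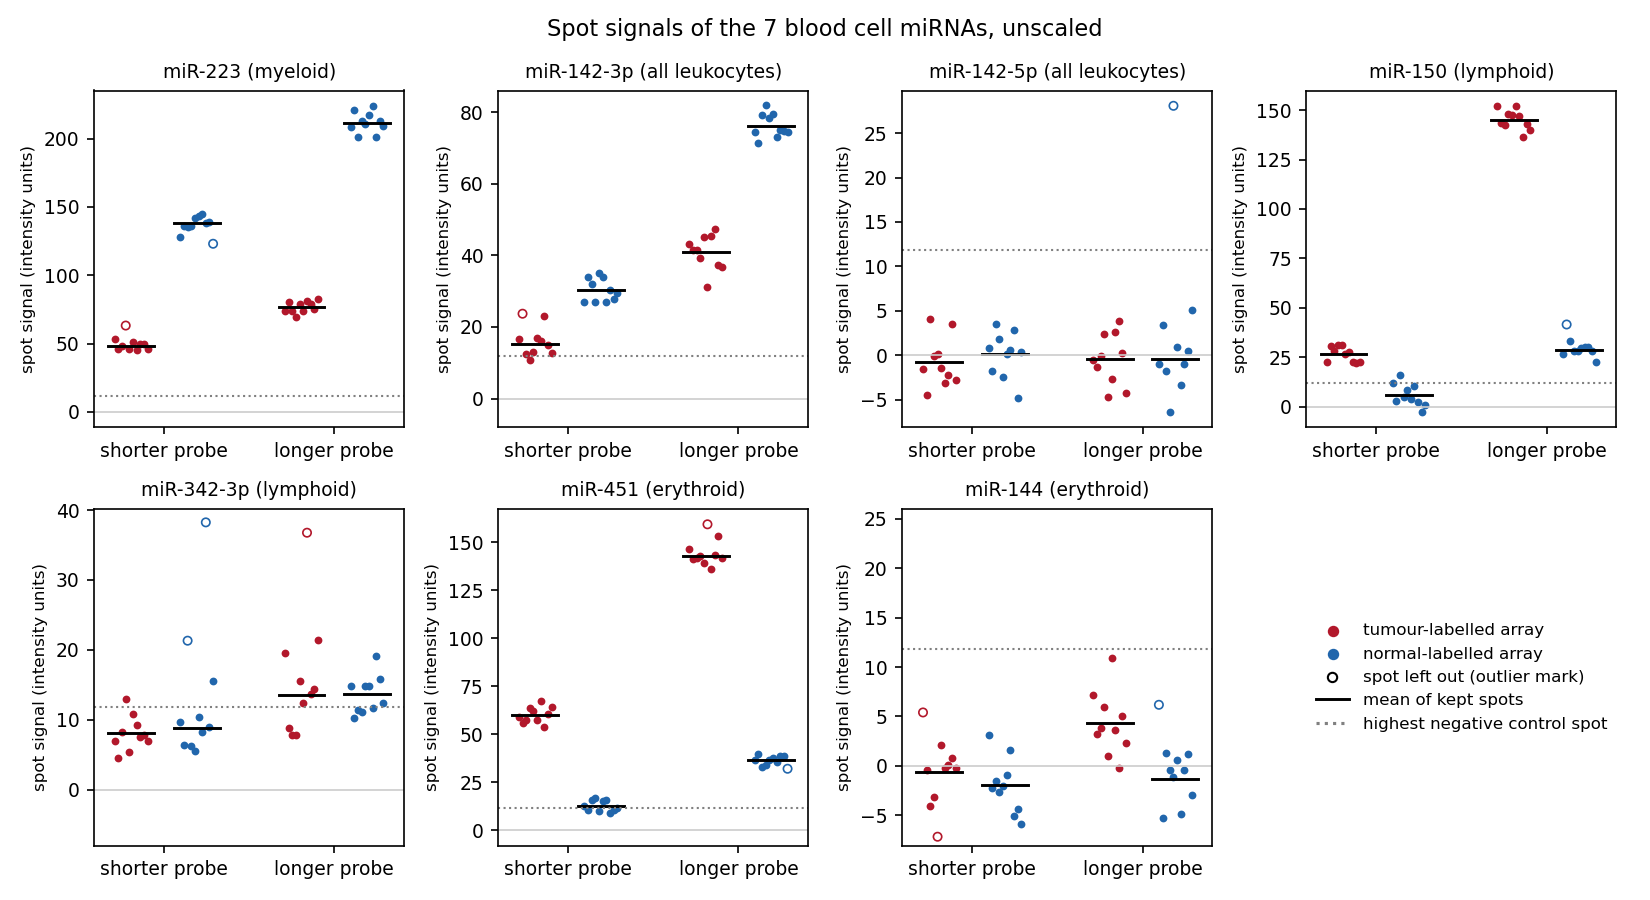
Signal of every spot in intensity units, unscaled, for the shorter and the longer probe of each of the 7 miRNAs, with the tumour-labelled array in red left of the normal-labelled array in blue. Spots of miR-223 and miR-142-3p lie lower and those of miR-150 and miR-451 higher on the tumour-labelled array, while those of miR-342-3p, miR-144 and miR-142-5p overlap.

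A difference between 2 miRNAs' log2 ratios is free of any factor that scales a whole array. The lymphoid miR-150 stood 3.84 above the myeloid miR-223 (spot SE 0.06), a 14.3-fold shift between these lineage markers, but 2.10 with normexp and its offset of 50 and 2.93 with no filter on dim probes. The erythroid miR-451 stood 3.45 above miR-223 (spot SE 0.04), or 10.9-fold, but 3.99-fold with normexp and its offset. Set against the pan-leukocyte miR-142-3p, miR-150 stood 3.25 higher (spot SE 0.08), miR-451 2.86 higher (spot SE 0.07), and miR-223 differed by -0.59 (spot SE 0.06). With normexp and its offset, miR-150 stood 1.62 and miR-451 1.52 above miR-142-3p, and with no filter miR-150 stood 2.26 above it. miR-223 and miR-142-3p therefore had ratios 1.50-fold apart, and miR-150 lay apart from both. The second lymphoid miRNA, miR-342-3p, had no ratio by the detection rule and enters none of these differences. By total gene signal, where it was dim, miR-342-3p was at -0.78. By the same measure miR-142-3p was at -1.64, miR-223 at -2.20 and miR-150 at 1.61. Over the other settings miR-223 minus miR-142-3p ran from -0.82, with quantile normalization, to -0.48, within 2-fold throughout. The ratios of miR-451 and miR-150 were also within 2-fold of each other, with miR-451 minus miR-150 at -0.39 (spot SE 0.06).

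Reading each ratio against the middle of the array shifts all 4 by the same amount, so the split is kept by construction. Relative to the median of all 85 miRNAs, miR-150 was at 1.89 and miR-451 at 1.50 on the log2 scale, and miR-142-3p was at -1.36 and miR-223 at -1.95. All 4 were thus more than 2-fold from that median, whichever common factor scales the arrays. The share of all 85 miRNAs that lie so far from it was not counted, so this distance does not set the 4 apart. The background correction, unlike a common factor, can move these distances. With normexp and its offset of 50, miR-150 and miR-451 had log2 ratios of 0.38 and 0.27, and lay 0.92 and 0.81 from the median of that setting. Without that offset, an alternative chosen after seeing the data, the log2 ratios were 1.02 and 0.81.

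**Figure D2:**
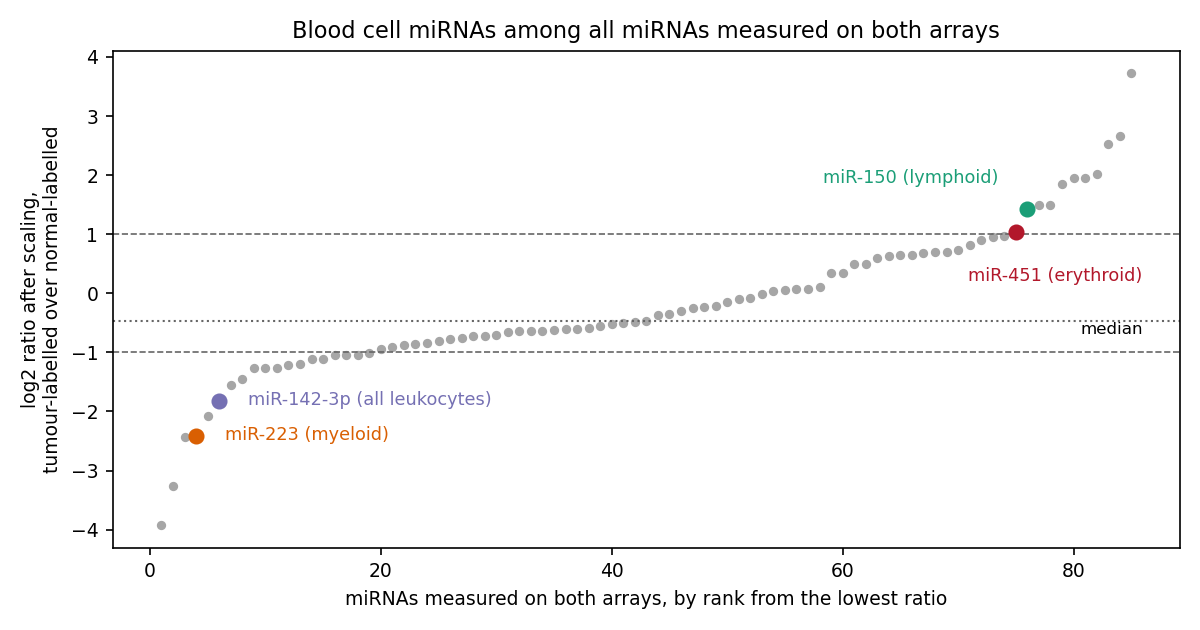
Scaled log2 ratio, tumour-labelled over normal-labelled, of the 85 miRNAs measured on both arrays, ordered from the lowest, with 2-fold lines dashed and the median of -0.46 dotted. miR-223 and miR-142-3p lie at ranks 4 and 6 from the bottom, and miR-150 and miR-451 at ranks 10 and 11 from the top.

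Other miRNAs of blood and immune cells had scaled ratios below 0 where they could be measured. Of 16 listed, 11 were on the array and 5 were measured on both arrays, and all 5 were below 0 after scaling, as were 53 of all 85 miRNAs. miR-146b and miR-146a, which NF-kB induces as a brake on innate signalling, had log2 ratios of -2.07 and -1.04 and were the 2 that were at least 2-fold lower, but miR-146a was at -0.12 without scaling. miR-16 at -0.62, miR-181a, a regulator of T cell receptor sensitivity, at -0.50, and miR-24 at -0.22 were between the 2-fold lines, and all 3 turned positive without scaling. Detection of miR-128 was limited to the tumour-labelled array, and 5 were detected on neither array, among them miR-342-5p, the other arm of the miR-342 hairpin. The list's median of -0.62 stands beside -0.46 for all 85 miRNAs, and miR-16 and miR-24 are made by most tissues as well as by blood cells.

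Markers of other tissue compartments moved too. The 4 muscle miRNAs were all above 0 and 3 were at least 2-fold higher, against 32 and 11 (12.9%) of all 85 miRNAs, their levels summing to 14.2 on the tumour-labelled array and 2.39 on the normal-labelled array. Endothelial miR-126 was at 0.68 on the log2 scale (spot SE 0.02), with levels of 0.591 on the tumour-labelled array and 0.370 on the normal-labelled array, while miR-126* was detected on neither. The levels of miR-205 and miR-203, of squamous epithelium, summed to 2.54 on the tumour-labelled array and 4.31 on the normal-labelled array, with log2 ratios of -1.04 and -0.24. Without scaling these ratios were -0.12 and 0.69, so the direction of this pair turned with the scaling. The part of muscle, vessels or epithelium in the ratios of the blood cell miRNAs was not tested.

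**Figure D3:**
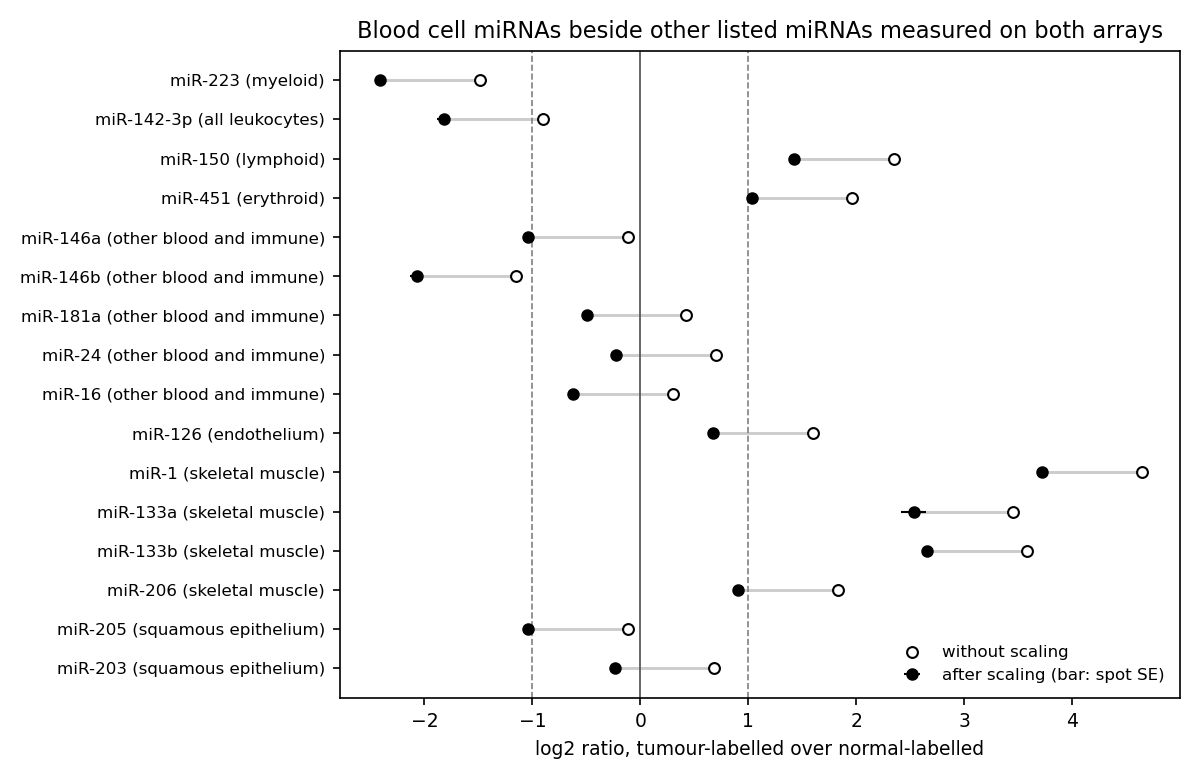
Log2 ratio, tumour-labelled over normal-labelled, of the listed miRNAs measured on both arrays, after scaling (filled, bar for the spot SE) and without it (open), with dashed lines at 2-fold. The ratios of miR-150 and miR-451 lie above 0 with and without scaling, as do the muscle miRNAs and miR-126. Those of miR-223 and miR-142-3p lie below 0 in both, as do miR-146a, miR-146b and epithelial miR-205. miR-16, miR-181a, miR-24 and miR-203 lie below 0 only after scaling.

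Among the other 84 miRNAs measured on both arrays, the ratios nearest to miR-223 were those of miR-221 (-2.43) and miR-146b (-2.07). Nearest to miR-142-3p were miR-146b and miR-199a-5p (-1.56), a miRNA of mesenchymal cells. Nearest to miR-150 were miR-30c (1.49) and miR-10b (1.49), and nearest to miR-451 were miR-26b (0.96) and miR-26a (0.96). Likeness here is the gap between log2 ratios over 2 arrays, which is a single number per miRNA.

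**Figure D4:**
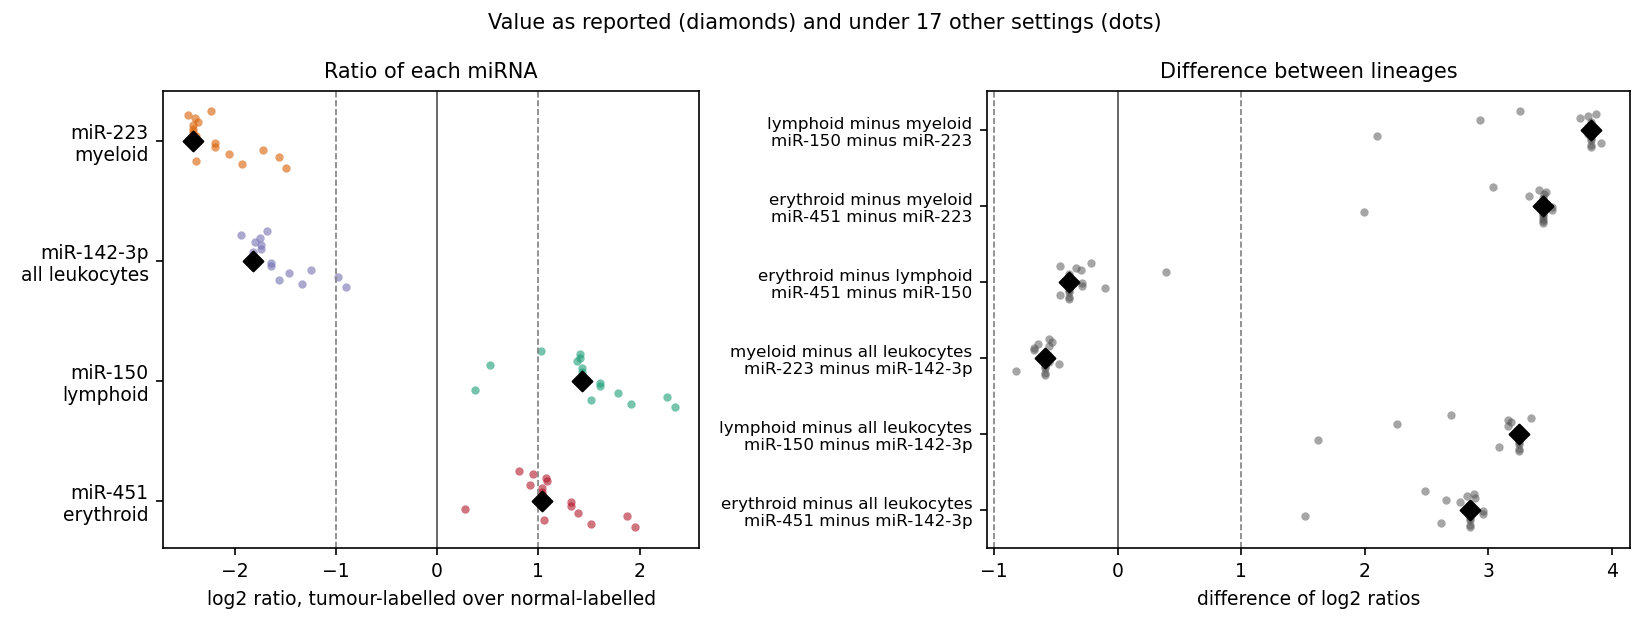
Log2 ratios of the 4 blood cell miRNAs measured on both arrays (left) and the differences between lineages (right), with diamonds for the values as reported and dots for the 17 other settings. The ratios of miR-223 are past 2-fold at every dot, from -2.46 to -1.49, and the difference of miR-150 minus miR-223 runs from 2.10 to 3.91.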

How the data were processed

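Rat tongue RNA labelled with Cy3 was hybridised to 1-colour Agilent miRNA arrays. Per the file headers, the authors' deposited spot intensity values come from Agilent Feature Extraction 10.5.1.1, which subtracted background and detrended each array in space but did not normalize between arrays. The deposited value table holds the software's total gene signal, floored at 1.

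Spots with an outlier mark were left out, 248 of 7000 on the tumour-labelled array and 338 of 7000 on the normal-labelled array, and the others were averaged per probe. After scaling, each array's dimmest detected probe set the floor before log2 was taken. Probes detected on both arrays were averaged into 1 log2 ratio per miRNA. Where a probe was detected on 1 array, the fold is a lower bound against the higher of its own signal and the other array's dimmest detected probe. List levels are geometric means over probes, summed. Detected probes had a median spot CV of 5.20% on the tumour-labelled array and 6.33% on the normal-labelled array, and the number of arrays limits the precision.

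All 7 miRNAs are named, with listed miRNAs and the 2 nearest ratios to each. Members and lists were chosen with earlier results of these data known. In all, 17 alternatives, 1 of them added after seeing these values, vary scaling, background correction (limma 3.58.1), summary, filter and spots. The steps were tested on simulated data, with both arrays drawn from the normal-labelled array. The common shift of unchanged miRNAs was removed before scoring, so that test does not cover the choice of scaling. Every change put in was larger than the ratios of miR-150 and miR-451, so changes near the 2-fold line were not covered either. The label protocol names a kit for messenger RNA.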

Additional observations from a re-analysis of the deposited data

Results flagged for a closer look

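Several probes that were not detected, and so entered no ratio, had a mean signal above every negative control probe of their array, whose highest means were 1.68 intensity units on the tumour-labelled array and 2.94 on the normal-labelled array. For miR-342-3p these were both probes on both arrays, with 13.5 units on the tumour-labelled array and 13.6 on the normal-labelled array for the longer probe, and with 8.06 units on the tumour-labelled array and 8.86 on the normal-labelled array for the shorter. For the shorter probe of miR-142-3p it was 15.2 units on the tumour-labelled array. The shorter probes of miR-451 and miR-150 had 12.7 and 5.79 units on the normal-labelled array. The longer probe of miR-144 had 4.29 units on the tumour-labelled array, where single negative control spots reached 11.2.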

How the results depend on the processing

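Across 17 other settings, of which normexp without offset was chosen after seeing the data, miR-223, miR-142-3p, miR-150 and miR-451 kept the sign of their log2 ratio, and miR-223 stayed past 2-fold in all 17. miR-142-3p fell under 2-fold without scaling (-0.90) and on the positive control features (-0.98). miR-150 did so with normexp and an offset of 50 (0.38) and with no filter on dim probes (0.52), and miR-451 with these (0.27 and 0.92), on even spots (0.95) and with normexp without offset (0.81). The count of blood cell miRNAs at least 2-fold higher was thus 0 with normexp and its offset or no filter and 1 on even spots or with normexp without offset, and the count lower was 1 without scaling or on control features. The differences of miR-150 and miR-451 from miR-223 and from miR-142-3p stayed past 2-fold in all 17, the lowest being 1.52. Several of the 17 could not move them. A setting that changes only a common factor cancels in these differences and in distances from the median. The median over 2 probes equals their mean, and the deposited table repeats the total gene signal. The difference of miR-451 minus miR-150 was under 2-fold throughout and turned positive with no filter (0.39). Relative to the median of all miRNAs, normexp with its offset took miR-150 to 0.92, miR-451 to 0.81 and miR-142-3p to -0.70, and no filter took miR-142-3p to -0.82, while in the other settings all 4 stayed past 2-fold. The share of all miRNAs past 2-fold from the median was not counted. All 7 members have a value only with no filter, where miR-142-5p, miR-342-3p and miR-144 are at -0.92, the ratio of the floors. With the software's total gene signal or the deposited table, miR-342-3p was at -0.78.

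Over all miRNAs, the 11 higher and 19 lower became 28 and 5 without scaling, 27 and 5 on control features, 23 and 7 with the percentile over all probes, 21 and 8 without muscle probes, and 3 and 8 with normexp and its offset. The total gene signal and the deposited table gave 18 higher each. The median ratio of all miRNAs shifted by 0.92 without scaling, 0.84 on control features, 0.48 over all probes, 0.36 without muscle probes, 0.21 with the total gene signal and 0.10 with quantile normalization. It also shifted by -0.45 with no filter and -0.13 with any spot above background. The cause of these changes was not tested beyond the construction of each setting. No paired analysis was possible because each group has 1 array. Signal over background limits miR-342-3p, miR-144 and miR-142-5p.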
